A study of Mus musculus with 2 samples.

Results

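The Slc25 family is the large group of carrier proteins that move metabolites, nucleotides, cofactors and ions across the inner mitochondrial membrane. RNA-Seq values of its genes were set side by side for a D0 library of brown preadipocytes and a D7 library of brown adipocytes differentiated from them. The members were all rows with values in the deposited table whose symbol was Slc25a followed by a number, leaving out the ADP/ATP carriers Slc25a4, Slc25a5 and Slc25a31 and the carnitine carrier Slc25a20. This gave 43 genes of 23361. Ucp1, Ucp2 and Ucp3 belong to the same protein family but carry other symbols and were not members.

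The cells were brown preadipocytes taken from newborn C57BL/6 mice (C57BL/6J in the methods), out of interscapular brown adipose tissue. The labels call them primary cultures, while the methods of the study describe cells of newborn mice of either sex immortalized with large T antigen. By the labels, the cells at both stages were kept for 4 days before induction in medium that held T3 at 1 nM and insulin at 0.1 μM. The D7 cells then had dexamethasone at 2 μg/ml, indomethacin at 0.125 mM and IBMX at 0.5 mM for 2 days, followed by medium with insulin and T3 alone. The methods give lower insulin and dexamethasone concentrations. The labels name no knockout or further treatment for either library.

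Values are FPKM as the authors deposited them, numbers of fragments scaled to transcript length and library size, so levels of different carriers can be set side by side. Where a gene is given a pair of values, the first is D0 and the second D7. A gene was called changed when FPKM at D7 over FPKM at D0 was at least 2.0 or at most 0.5. The 2.0-fold threshold is that of the study, while its use on unscaled FPKM of genes above 0 in both libraries was chosen here. With 1 library per stage there is no replicate check and no p-value. The intervals given are exact 95% Clopper-Pearson intervals on recovered numbers of fragments, cover counting error only, and compare these 2 libraries rather than the stages. The FPKM values were relative to about 21472000 fragments at D0 and 18266000 at D7. All 35 carriers with an FPKM of at least 1 had at least 36 fragments in the library where they were higher.

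A carrier sets which metabolites can leave or enter the mitochondrial matrix, and so links the citrate cycle in the matrix to lipid synthesis and amino acid use in the cytosol. Brown fat is dense in mitochondria, burns fatty acids and branched-chain amino acids for heat, and makes new fatty acids from exported citrate. Slc25a17 sits in peroxisomes and Slc25a46 in the outer mitochondrial membrane, so not every member is an inner membrane carrier.

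Markers of the cells were read first. Of 9 adipocyte markers, the 6 above 0 in both libraries (Cox7a1, Pparg, Cebpa, Fabp4, Adipoq and Plin1) all rose past 2.0-fold. The study describes Pparg as a regulator of adipogenesis in both brown and white cells. The other 3 (Ucp1, Cidea and Elovl3), which the study counts as brown specific, were listed at 0 at D0 and above 0 at D7. Ucp1, which defines brown adipocytes, reached an FPKM of 4.57 at D7. All 6 proliferation markers were lower at D7, and their FPKM summed to 55.5 at D0 and to 11.7 at D7. Of 11 macrophage markers, 10 were higher at D7, and all 11 summed to 156 at D0 and to 584 at D7. The 7 erythroid markers summed to 0.164 at D0 and 0.193 at D7, and 5 of them, the globins Hba-a1, Hba-a2, Hbb-b1 and Hbb-b2 among them, were listed at 0 in both libraries. The 4 endothelial markers summed to 0.995 and 2.32. The 8 skeletal muscle markers summed to 46.0 at D0, nearly all of it Acta1, and to 2.55 at D7, with Ckm and Myod1 listed at 0 in both. The part of cell mixture in the results below was not tested, and in bulk RNA fewer cells of a type and less RNA per cell cannot be told apart.

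Of the 43 carriers, 38 were above 0 in both libraries, 3 were listed at 0 at D0 only and 2 were listed at 0 in both. At D7, 16 of the 38 rose by at least 2.0-fold and 3 fell to at most 0.5. These are 42.1% and 7.89% of the 38, beside 18.5% and 13.2% of the 14986 genes above 0 in both libraries. The whole counting interval lay past 2.0-fold on the higher side for 12 of the 38 carriers (31.6%) and on the lower side for 2 (5.26%), beside 11.2% and 7.1% of all genes with a length. In 30 carriers (78.9%) the ratio was above 1, beside 50.6% of all genes. The interval lay above 1 for 28 carriers, below 1 for 7 and included 1 for Slc25a21, Slc25a38 and Slc25a40, while over all genes 34.5% lay above and 35.5% below. The median ratio of the carriers was 1.63 and that of all genes 1.01. FPKM reached 10 in 13 carriers at D0 and in 21 at D7. Among the 35 carriers with an FPKM of at least 1 in a library, 15 rose and 3 fell, beside 15.6% and 11.9% of all genes with such a level. With values under 0.01 raised to 0.01 and the libraries divided by their medians, which moved the median log2 ratio of all genes by -0.35, 14 of the 43 carriers rose, 3 of them the carriers listed at 0 at D0 only, and 4 fell. Slc25a16, Slc25a22, Slc25a33, Slc25a39 and Slc25a47 were then within 2.0-fold, and Slc25a12 fell. Under that setting 12.1% of all 23361 genes rose and 16.4% fell, so the balance over all genes turned towards falls while more carriers rose than fell.

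**Figure D1:**
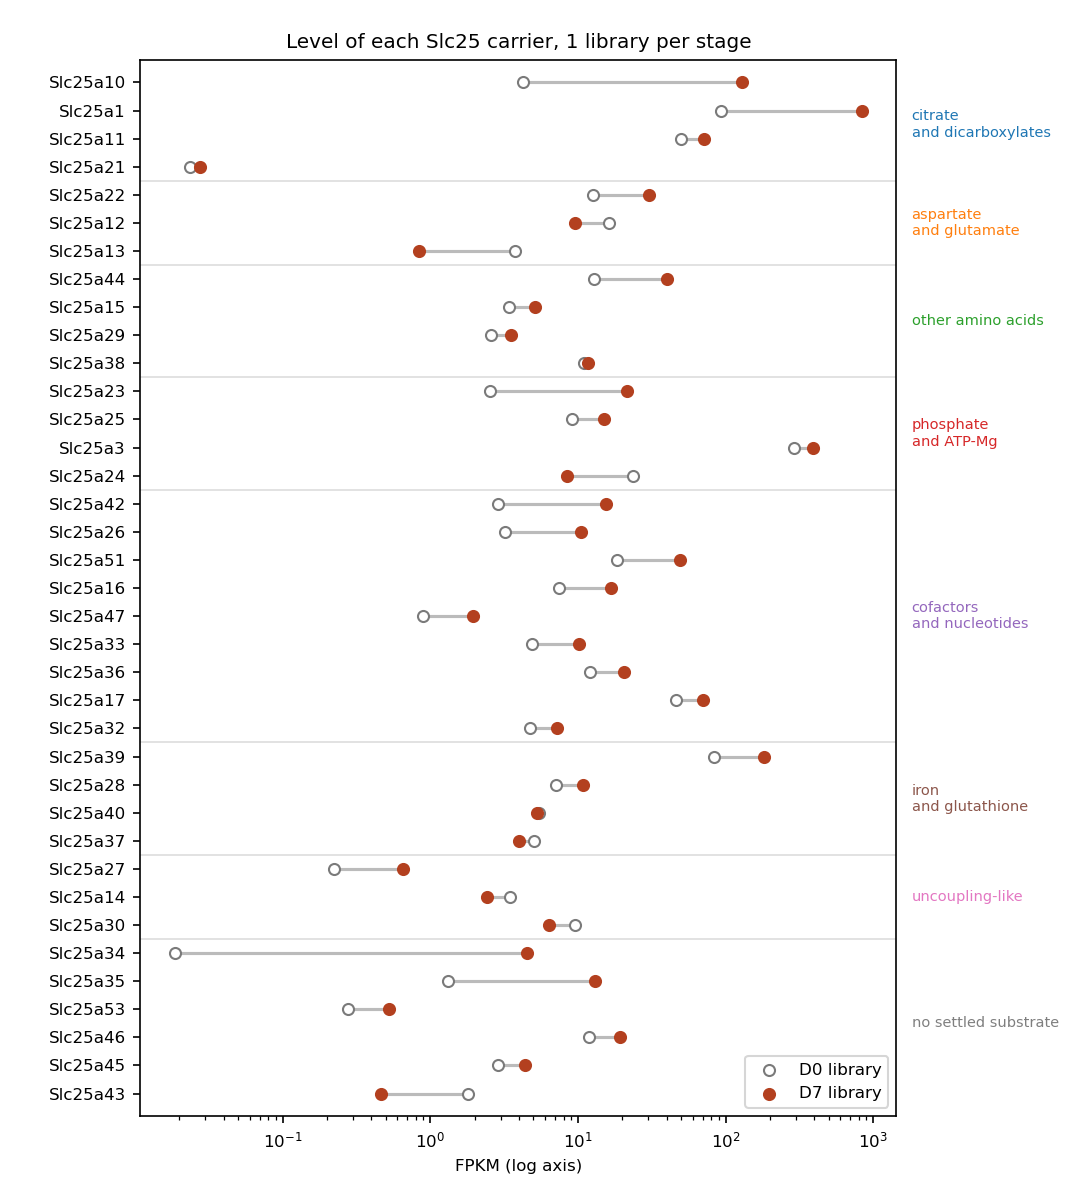
FPKM of 37 of the 38 Slc25 carriers above 0 in both libraries, on a log axis, in the D0 library (open circles) and the D7 library (filled circles), grouped by substrate. Slc25a1 had the highest level at D7, with an FPKM of 840.1, and Slc25a34 had the widest gap, from 0.0186 to 4.49.

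**Figure D2:**
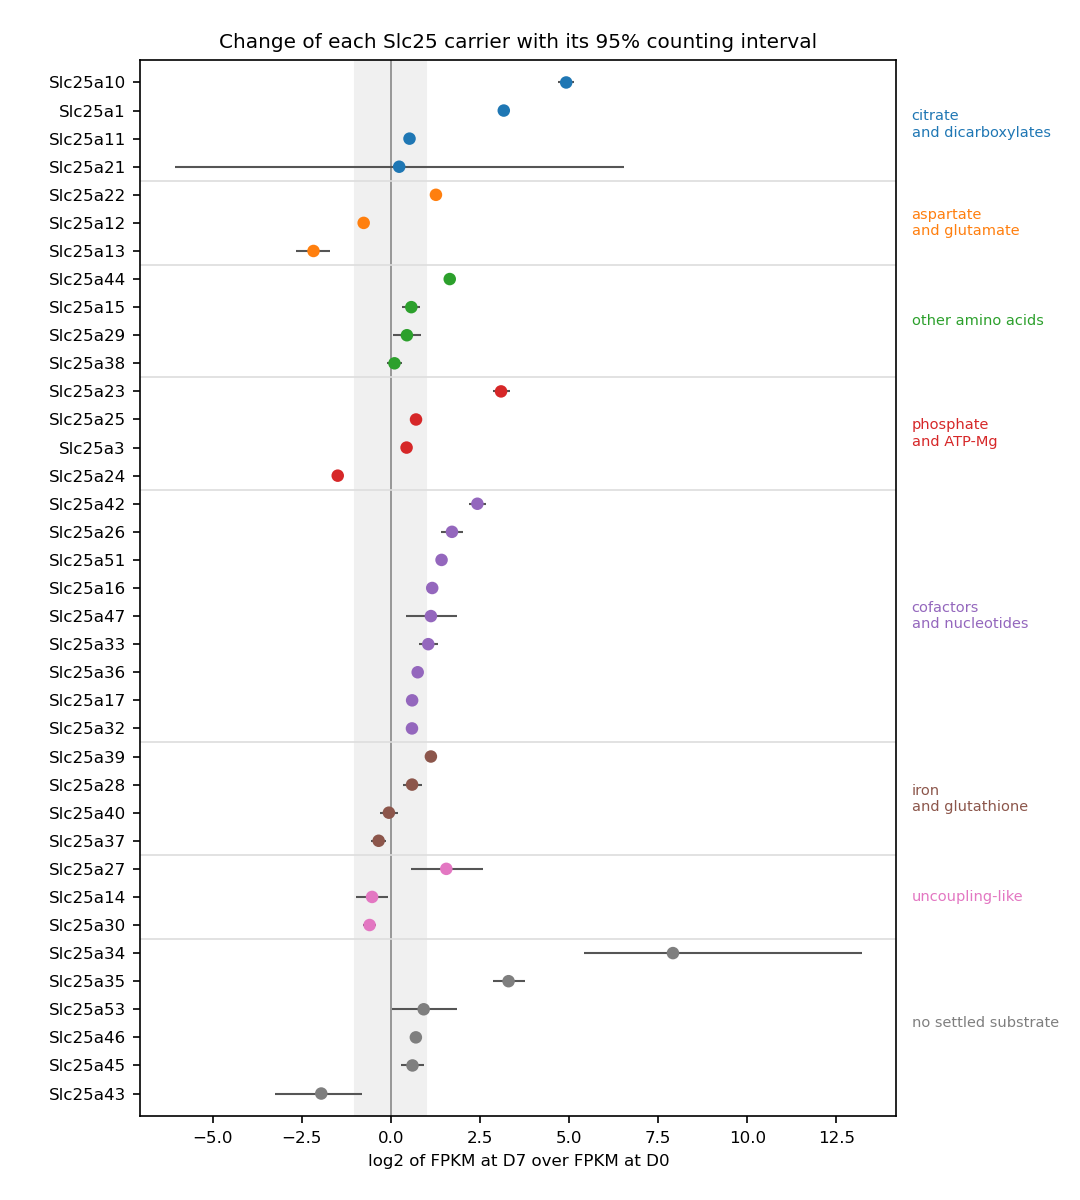
Log2 ratio of FPKM at D7 over D0 for the same 37 carriers, with horizontal lines for 95% counting intervals from 1 library per stage and grey shading within 2.0-fold. Of the points, 15 lie at or right of the shading and 3 left of it, and the wide intervals of Slc25a21 and Slc25a34 rest on 1 fragment at D0.

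The summed FPKM of all carriers was 773 at D0 and 2097 at D7, with a D7/D0 ratio of 2.71. The carriers made up 0.151% of all FPKM at D0 and 0.401% at D7. Much of the gain lay in the citrate carrier Slc25a1, which held 12.1% of the carrier sum at D0 and 40.1% at D7. Without Slc25a1 the ratio of the sums was 1.85. The phosphate carrier Slc25a3 was the most abundant carrier at D0 with 37.4% of the sum, and held 18.7% at D7. By level, the first 5 carriers at D0 were Slc25a3, Slc25a1, Slc25a39, Slc25a11 and Slc25a17. At D7 they were Slc25a1, Slc25a3, Slc25a39, Slc25a10 and Slc25a11, with Slc25a17 close behind Slc25a11 at 70.2 against 71.8. The 5 highest carriers held 72.8% of the sum at D0 and 77.1% at D7.

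**Figure D3:**
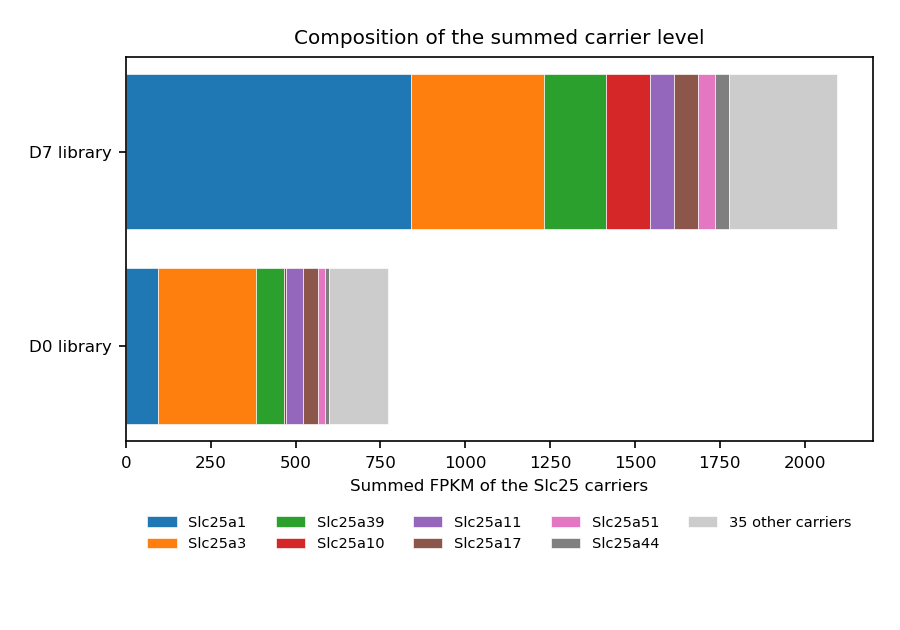
Summed FPKM of the 43 carriers in each library, as a stacked bar from 0, with 8 carriers named and 35 others in grey. The bar grew from 773 to 2097, and the Slc25a1 segment from 93.4 to 840.1.

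The stretches just before the gene starts are shown for 4 of the carriers that rose and 2 of the 3 that fell, so that letters of carriers that moved in opposite directions can be set side by side. They were chosen after the values were seen and are not the complete ends of the range. RefSeq start windows of GRCm38.p6 were found for 32 of the 43 carriers. Each line gives the 250 bases before the start on the strand of the gene, and capitals mark matches on either strand (those on the other strand as their reverse complement) to the GC box GGGCGG, the CCAAT box CCAAT, the E-box CACGTG and the nuclear receptor half-site AGGTCA.
Slc25a1, chr16:17928220-17928469, minus strand: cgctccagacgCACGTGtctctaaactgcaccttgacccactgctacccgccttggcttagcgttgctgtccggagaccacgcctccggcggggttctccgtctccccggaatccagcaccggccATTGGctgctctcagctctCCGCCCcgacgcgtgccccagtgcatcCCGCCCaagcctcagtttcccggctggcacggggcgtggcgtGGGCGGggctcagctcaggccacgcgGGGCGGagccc
Slc25a10, chr11:120491587-120491836, plus strand: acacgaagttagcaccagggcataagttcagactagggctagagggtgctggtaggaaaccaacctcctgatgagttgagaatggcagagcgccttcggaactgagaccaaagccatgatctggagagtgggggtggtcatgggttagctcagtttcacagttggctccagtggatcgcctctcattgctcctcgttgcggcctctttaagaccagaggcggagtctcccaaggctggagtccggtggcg
Slc25a34, chr4:141623835-141624084, minus strand: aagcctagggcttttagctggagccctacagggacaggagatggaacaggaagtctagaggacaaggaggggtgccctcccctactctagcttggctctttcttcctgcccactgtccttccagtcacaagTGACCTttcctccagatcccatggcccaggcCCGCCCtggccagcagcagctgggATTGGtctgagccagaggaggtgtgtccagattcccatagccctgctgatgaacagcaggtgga
Slc25a42, chr8:70212282-70212531, minus strand: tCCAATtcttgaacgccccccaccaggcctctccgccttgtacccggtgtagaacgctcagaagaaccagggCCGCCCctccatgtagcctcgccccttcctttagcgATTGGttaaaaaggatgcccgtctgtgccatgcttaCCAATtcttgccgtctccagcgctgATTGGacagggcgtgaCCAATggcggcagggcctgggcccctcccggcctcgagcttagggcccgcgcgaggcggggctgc
Slc25a24, chr3:109122899-109123148, plus strand: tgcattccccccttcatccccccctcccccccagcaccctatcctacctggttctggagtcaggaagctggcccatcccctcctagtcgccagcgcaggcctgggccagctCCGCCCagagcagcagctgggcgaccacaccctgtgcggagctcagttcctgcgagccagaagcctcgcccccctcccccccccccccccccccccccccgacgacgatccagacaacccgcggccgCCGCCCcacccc
Slc25a13, chr6:6217174-6217423, minus strand: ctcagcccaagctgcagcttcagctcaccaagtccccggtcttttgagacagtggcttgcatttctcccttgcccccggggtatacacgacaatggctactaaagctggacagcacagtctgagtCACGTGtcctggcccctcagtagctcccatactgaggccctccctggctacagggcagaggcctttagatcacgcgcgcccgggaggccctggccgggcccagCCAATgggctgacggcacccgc
The window of Slc25a1 held 4 GC boxes, 1 CCAAT box and 1 E-box, the E-box starting 239 bases before the start. The window of Slc25a42 held 5 CCAAT boxes and 1 GC box. The window of Slc25a34 held a half-site starting 119 bases before the start, a GC box and a CCAAT box. The window of Slc25a10, which rose 30.3-fold, held none of these letters, while that of Slc25a24, which fell, held 2 GC boxes. The window of Slc25a43, which also fell and is not printed, held none of these letters.

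Over the 32 carriers, 22 (68.8%) held a GC box, 17 (53.1%) a CCAAT box and 6 (18.8%) an E-box. Over all 27025 genes with a window these shares were 35.4%, 37.5% and 6.86%. The 42 windows of the carriers had a median of 56.8% G and C, beside 52.4% over all 32851 windows. A gene was counted when any of its windows held a match. The GC box was in 7 of 10 carriers that rose, 1 of 3 that fell and 13 of 16 within 2.0-fold, counting carriers with a window. The half-site AGGTCA was in 3 of the 10 that rose (Slc25a34, Slc25a39 and Slc25a47), 0 of the 3 that fell and 1 of the 16 within 2.0-fold. Over all 32 carriers its share was 12.5%, beside 15.8% of all genes. TATA boxes (TATAAA) were in 2 carriers, 6.25% beside 14.3% of all genes. Searches on either strand for the ERR element TCAAGGTCA, the C/EBP palindrome TTGCGCAA, the half-site repeated after a 1-base gap and the palindromic NRF1 site found 0 of 32 carriers, and these were rare over all genes, at 0.422%, 0.185%, 0.0407% and 0.877%. The cAMP response element TGACGTCA was in 2 carriers, 6.25% beside 1.77% of all genes, and the ETS core CCGGAAG in 4, 12.5% beside 7.83%. The repeat and the ERR element contain the half-site. A match or its absence in these windows is a description of letters and not of binding.

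Of the 8 groups, carriers of citrate and dicarboxylates gained most in summed FPKM, from 148 at D0 to 1040.4 at D7. Slc25a1 exports citrate, the carbon source for fatty acid synthesis in the cytosol. It lies on the minus strand of chromosome 16 (mm10, 17925211 to 17928219), with 9 exons in the transcript used. Its FPKM went from 93.4 to 840.1, with a D7/D0 ratio of 9.0 (95% interval 8.66 to 9.35). By level among all 23361 genes it stood at rank 878 at D0 and rank 79 at D7. Slc25a10, the dicarboxylate carrier that exchanges malate or succinate for phosphate, lies on the plus strand of chromosome 11 (120491837 to 120501161). It went from 4.24 FPKM at D0 to 128 at D7, with a D7/D0 ratio of 30.3 (25.9 to 35.5), from about 168 to about 4318 fragments. An annotated gene on the other strand, Gm11788, overlaps its exons.

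Slc25a11, which exchanges 2-oxoglutarate for malate in the malate-aspartate shuttle, had 49.9 FPKM at D0 against 71.8 at D7. Its ratio of 1.44 (1.35 to 1.54) stayed within 2.0-fold. Exons of Rnf167 on the other strand overlap it. At D0 the level of Slc25a11 was 11.8 times that of Slc25a10, and at D7 the level of Slc25a10 was 1.79 times that of Slc25a11. Slc25a21, the oxodicarboxylate carrier of lysine and tryptophan breakdown, had about 1 fragment in each library, so no change was detectable at this depth.

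The enzymes that make, export and use citrate were all among the higher genes. All 8 genes of the list, among them Cs, Idh1, Acly, Me1 and Fasn, rose by at least 2.0-fold, with a median ratio of 12.1. Among all genes above 0 in both libraries 18.5% rose. ATP citrate lyase (Acly), which splits the exported citrate, had 120.7 FPKM at D0 against 1644 at D7. Malic enzyme (Me1), which makes cytosolic NADPH, had 66.2 and 1881. The ratios of Acly (13.6) and Me1 (28.4) were larger than that of Slc25a1, and their counting intervals lay apart from it.

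Pyruvate enters mitochondria through carriers outside the Slc25 family, and these had ratios as large. Mpc1 had 34.4 FPKM at D0 against 838 at D7, with a D7/D0 ratio of 24.4 (22.4 to 26.6). Mpc2, the other subunit, had 41.0 and 569, with a D7/D0 ratio of 13.9 (12.9 to 15.0). Of 15 mitochondrial transporters of other families with values, 9 rose and 1 fell, the transhydrogenase Nnt, with 22.9 FPKM at D0 against 10.3 at D7. Their median ratio was 2.72, and of all genes above 0 in both libraries 18.5% rose and 13.2% fell. The outer membrane channels Vdac1, Vdac2 and Vdac3 stayed within 2.0-fold, with a median ratio of 1.09.

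Of 3 aspartate and glutamate carriers above 0 in both libraries, Slc25a22 rose and Slc25a13 fell. Slc25a12 and Slc25a13 (aralar and citrin) are calcium-regulated carriers that export aspartate in exchange for glutamate, the other inner membrane step of the malate-aspartate shuttle. Slc25a13 lies on the minus strand of chromosome 6 (6041218 to 6217173), with 18 exons. Its FPKM went from 3.77 to 0.839, with a D7/D0 ratio of 0.222 (0.158 to 0.307), from about 238 to about 45 fragments. Slc25a12 had 16.2 FPKM at D0 against 9.58 at D7, with a D7/D0 ratio of 0.590 (0.548 to 0.635) that did not reach 0.5. Both carriers were thus lower in the D7 library, and the level of Slc25a12 was 4.31 times that of Slc25a13 at D0 and 11.4 times at D7. The glutamate carrier Slc25a22, which imports glutamate with a proton, rose from 12.6 to 30.2 FPKM, with a D7/D0 ratio of 2.41 (2.20 to 2.63). Slc25a18, the second glutamate carrier, was listed at 0 for D0 and reached about 1 fragment at D7, where exons of Atp6v1e1 on the other strand overlap it.

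The enzymes of the malate-aspartate shuttle changed in part. Malate dehydrogenases rose, Mdh1 in the cytosol from an FPKM of 74.0 to 642 and Mdh2 in the matrix from 223 to 564. Aspartate aminotransferases stayed within 2.0-fold, Got1 with 31.0 FPKM at D0 against 24.2 at D7 and Got2 with 95.4 and 121.8. The glycerol phosphate shuttle is a route for cytosolic NADH that needs no Slc25 carrier, and its enzymes rose. Gpd1 went from 0.322 to 761 FPKM, and mitochondrial Gpd2 from 9.88 to 82.5. Of 11 glutamate and ornithine enzymes above 0 in both libraries, 4 rose (Glud1, Glul, Aldh4a1 and Prodh) and 3 fell (Aldh18a1, Pycr1 and Arg2, the last on about 3 and 1 fragments). Of all genes above 0 in both libraries 18.5% rose and 13.2% fell.

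Among carriers of other amino acids, Slc25a44 changed most. Slc25a44 imports branched-chain amino acids and is known as their route into brown fat mitochondria. It lies on the minus strand of chromosome 3 (88410496 to 88425139). Its FPKM went from 12.8 to 40.4, with a D7/D0 ratio of 3.15 (2.92 to 3.39). The pathway it feeds was higher as well. Of 14 genes of branched-chain amino acid breakdown, 12 were at least 2.0-fold higher, beside 18.5% of all genes above 0 in both libraries. The median ratio of the 14 was 4.71. Bcat2, the mitochondrial aminotransferase, rose from 25.2 to 208.8 FPKM, while Bcat1, the cytosolic enzyme, fell from 16.6 to 1.87. Bckdha of the branched-chain ketoacid dehydrogenase rose from 20.4 to 261. Bckdk, the kinase that inhibits this complex, had 17.4 and 24.0.

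The other amino acid carriers stayed within 2.0-fold. The ornithine carrier Slc25a15 had 3.41 FPKM at D0 against 5.08 at D7, and its interval of 1.26 to 1.78 lay above 1. Slc25a29, a carrier of basic amino acids, had 2.58 and 3.53. Slc25a38, which imports glycine for heme synthesis, had 10.9 and 11.7, and its interval of 0.926 to 1.25 includes 1, so no change was detectable at this depth. Slc25a2, a close relative of Slc25a15, was listed at 0 for D0 and reached about 2 fragments at D7. The deposited locus of Slc25a2 runs over 911588 bp of chromosome 18 across the protocadherin gene clusters, so its value is uncertain.

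Among carriers of phosphate and ATP-Mg, close relatives changed their order by level. Slc25a3 imports phosphate for ATP synthase and had 289 FPKM at D0 against 393 at D7, with a D7/D0 ratio of 1.36 (1.32 to 1.40). Slc25a23, Slc25a24 and Slc25a25 are calcium-regulated carriers that exchange ATP-Mg for phosphate and so set the size of the adenine nucleotide pool in the matrix. Slc25a24 lies on the plus strand of chromosome 3 (109123149 to 109168409) and fell from 23.6 to 8.40 FPKM, with a D7/D0 ratio of 0.356 (0.322 to 0.394). Slc25a23 lies on the minus strand of chromosome 17 (57043711 to 57059863) and rose from 2.53 to 21.6, with a D7/D0 ratio of 8.53 (7.27 to 10.1). Slc25a25 had 9.19 and 15.0, with a D7/D0 ratio of 1.63 (1.47 to 1.81). Slc25a24 thus had the highest level of these relatives at D0 and the lowest at D7, and the 3 counting intervals did not overlap. The gene Gm17168 overlaps Slc25a23, and Naif1 overlaps Slc25a25, each on the other strand.

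Slc25a41, a relative of Slc25a23 that lies 2057 bp from it, was listed at 0 in both libraries, where 3 fragments would be 0.134 FPKM at D0 against 0.157 at D7. Slc25a54, which lies 6567 bp from Slc25a24, was also listed at 0 in both. Slc25a43 lies 18345 bp from the ADP/ATP carrier Slc25a5, and fell while Slc25a5 rose 2.52-fold. Slc25a29 and Slc25a47 lie 15253 bp apart and had ratios of 1.37 and 2.18. The intervals of the latter pair overlapped.

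Of 10 carriers of cofactors and nucleotides, 7 rose by at least 2.0-fold and 0 fell, with a median ratio of 2.21. Of all genes above 0 in both libraries 18.5% rose and 13.2% fell. With only 10 carriers, 0 falls is not read as a trait of the group. Of the 7, Slc25a16, Slc25a33 and Slc25a47 had intervals that include 2.0 and were within 2.0-fold once the libraries were divided by their medians. Slc25a42 imports coenzyme A, and Slc25a16 is its closest relative among these genes. Slc25a42 rose from 2.86 to 15.4 FPKM, with a D7/D0 ratio of 5.38 (4.60 to 6.37), and Slc25a16 from 7.48 to 16.7, with a D7/D0 ratio of 2.24 (2.00 to 2.50, just including 2.0). Slc25a16 stood at 2.61 times Slc25a42 at D0 and at 1.09 times at D7. Of the enzymes that make coenzyme A, Pank1, Pank3, Ppcs and Coasy rose, while Pank2 had 9.16 and 11.9 and Pank4 had 9.54 and 8.91. Pank3 went from an FPKM of 11.8 to 75.6 and Coasy from 10.6 to 45.0. Slc25a17, which carries coenzyme A and other cofactors in peroxisomes, had 46.4 and 70.2, with a D7/D0 ratio of 1.51 (1.42 to 1.62).

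Slc25a51 imports NAD and rose from 18.3 to 49.1 FPKM, with a D7/D0 ratio of 2.68 (2.53 to 2.84). The annotated gene Gm25692, on the same strand, overlaps its exons. Nampt, which makes the NAD precursor nicotinamide mononucleotide, rose from 12.8 to 86.6. Slc25a26 imports the methyl donor S-adenosylmethionine and rose from 3.19 to 10.5, with a D7/D0 ratio of 3.29 (2.67 to 4.10), although exons of Lrig1 on the other strand overlap it. Slc25a47, known mainly from liver, had 0.898 and 1.96, with a D7/D0 ratio of 2.18 whose interval of 1.34 to 3.62 includes 2.0.

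Slc25a33 and Slc25a36 carry pyrimidine nucleotides for mitochondrial DNA and RNA synthesis. Slc25a33 had 4.91 FPKM at D0 against 10.2 at D7, with a D7/D0 ratio of 2.07 whose interval of 1.72 to 2.50 includes 2.0. Slc25a36 had 12.1 and 20.4, with a D7/D0 ratio of 1.69 (1.57 to 1.81). Slc25a32, a carrier linked to folate and FAD, had 4.76 and 7.19, with a D7/D0 ratio of 1.51 (1.35 to 1.68). Over all cofactor synthesis genes of the list, 6 of 20 rose and 3 fell, with a median log2 ratio of 0.58. Among all genes above 0 in both libraries 18.5% rose and 13.2% fell, so 3 falls of 20 lie near that share. The 3 that fell belong to mitochondrial folate metabolism, Shmt2 with 37.5 and 18.5, Mthfd2 with 54.8 and 25.6 and Mthfd1l with 9.82 and 2.20, and the intervals of Shmt2 and Mthfd2 include a ratio of 0.5. Of the same pathway, Mthfd2l had 3.22 and 4.64 and Mtfmt had 6.00 and 5.42, both within 2.0-fold.

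Among carriers of iron and glutathione, Slc25a39 rose. Slc25a39 imports glutathione and was the third most abundant carrier in each library, at 83.8 FPKM for D0 and 182.6 for D7. Its ratio was 2.18 (2.08 to 2.29). Its relative Slc25a40 had 5.44 and 5.25, with an interval of the ratio from 0.812 to 1.14 that includes 1. Slc25a39 stood at 15.4 times Slc25a40 at D0 and at 34.8 times at D7. Slc25a28 and Slc25a37 (mitoferrin-2 and mitoferrin-1) import iron. Slc25a28 had 7.14 and 10.8, with a D7/D0 ratio of 1.51 (1.26 to 1.82). Slc25a37, the mitoferrin of red cell precursors, had 5.02 and 3.96, with a D7/D0 ratio of 0.790 (0.679 to 0.920), in libraries where the globin genes were listed at 0. Of 14 genes of heme and iron-sulfur synthesis, 5 rose (Alas1, Iscu, Isca1, Isca2 and Fdx1) and 0 fell, with a median ratio of 1.77. Of 6 glutathione enzymes, Gpx4 rose and Gpx1 fell. The shares over all genes above 0 in both libraries were 18.5% higher and 13.2% lower.

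Of 3 relatives of the uncoupling proteins, 1 of low level rose and the others stayed within 2.0-fold. Slc25a14 had 3.48 FPKM at D0 against 2.42 at D7, with a D7/D0 ratio of 0.695 (0.512 to 0.947). Slc25a30 had 9.55 and 6.32, with a D7/D0 ratio of 0.662 (0.583 to 0.750). Slc25a27, known mainly from brain, had 0.223 and 0.656, with a D7/D0 ratio of 2.94 (1.48 to 6.01) on about 13 and 32 fragments. This interval includes 2.0. For comparison, Ucp2 had 1.68 and 48.0, Ucp3 was listed at 0 at D0 and had 2.97 at D7, and Ucp1 is given above. Of the other carriers left out, Slc25a4 had 465 and 410.0, and Slc25a20, which imports acylcarnitines, had 24.3 and 73.0.

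Of carriers without a settled substrate, Slc25a34 and Slc25a35 rose and Slc25a43 fell. Slc25a34 lies on the minus strand of chromosome 4 (141618825 to 141623834). At D0 it had 0.0186 FPKM, about 1 fragment, and at D7 it had 4.49, about 204 fragments. The ratio was 241, with an interval from 42.6 to 9529. The D0 value lies under the limit of 3 fragments, and the D7 level was 80.0 times that limit. The log2 ratio of Slc25a34 was 7.91, and it was 5.27 and 2.43 with pseudocounts of 0.1 and 1, which kept the call. Slc25a35 lies on the plus strand of chromosome 11 (68968131 to 68973820) and rose from 1.33 to 13.1 FPKM, with a D7/D0 ratio of 9.87 (7.28 to 13.7). Exons of Rangrf on the other strand overlap it, and Rangrf had 14.8 FPKM at D0 against 6.71 at D7. Slc25a43 lies on the plus strand of chromosome X (36743632 to 36777307) and fell from 1.79 to 0.464, with a D7/D0 ratio of 0.259 (0.105 to 0.573) on about 36 and 8 fragments, an interval that includes 0.5.

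Slc25a46, which takes part in the shape of mitochondria and not in transport, had 11.9 FPKM at D0 against 19.4 at D7, with a D7/D0 ratio of 1.63 whose interval lay above 1. Slc25a45 had 2.87 and 4.38, and Slc25a53 had 0.278 and 0.528. Slc25a48 was listed at 0 at D0 and had 0.125 at D7, about 7 fragments. This D7 level was 2.85 times the limit of 3 fragments in the D0 library, an FPKM of 0.0437, and the lower end of the counting interval of its ratio was 1.70.

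Related carriers were then set side by side in 13 pairs, of which 10 had both genes above 0 in both libraries. In 7 of the 10 the counting intervals of the ratios did not overlap. No such share was computed for pairs of other genes, so the counts of pairs given here are not shown to be particular to related carriers. In 3 of the 10 the ratios lay on opposite sides of 1, Slc25a24 with Slc25a25, Slc25a28 with Slc25a37, and Slc25a39 with Slc25a40, though Slc25a40 itself cannot be told from no change. In 8 of the 10 the gene with the higher level at D0 also had the higher level at D7. The exceptions were Slc25a10 with Slc25a11 and Slc25a24 with Slc25a25. Slc25a23 was paired with Slc25a41 alone, so its changes of order with Slc25a24 and Slc25a25 are not in this count. Slc25a14 and Slc25a30 had close ratios, with log2 values of -0.52 and -0.59.

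**Figure D4:**
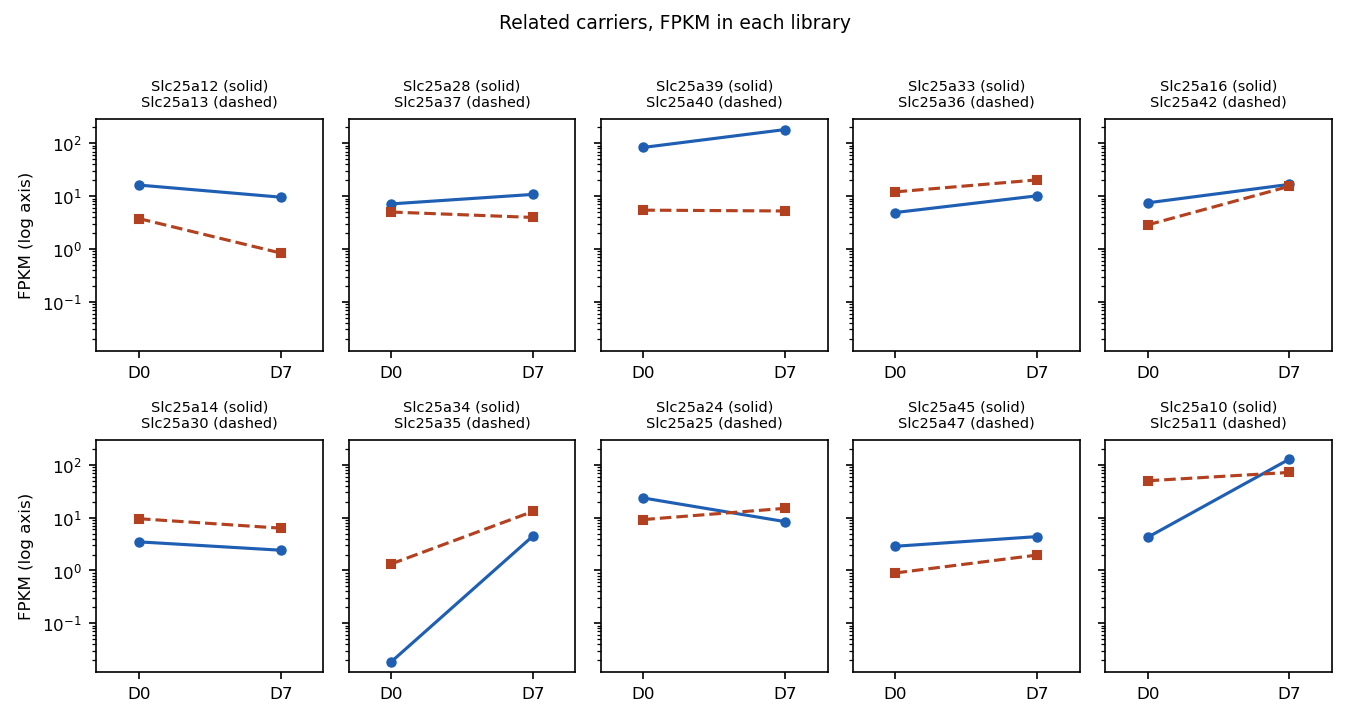
FPKM on a log axis at D0 and D7 for the 10 related pairs with values above 0, the first gene of each title as a solid line and the second as a dashed line. The lines cross for Slc25a24 with Slc25a25 and for Slc25a10 with Slc25a11.

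Over the 9 lists of genes that work with these carriers, 97 genes were above 0 in both libraries. Of these, 49 rose (50.5%) and 9 fell (9.28%), beside 18.5% and 13.2% of all genes. The lists were chosen with earlier results of these data known, so these shares describe the lists and test nothing. The list medians ran from a ratio of 1.01 for glutathione enzymes to 12.1 for citrate export and use.

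**Figure D5:**
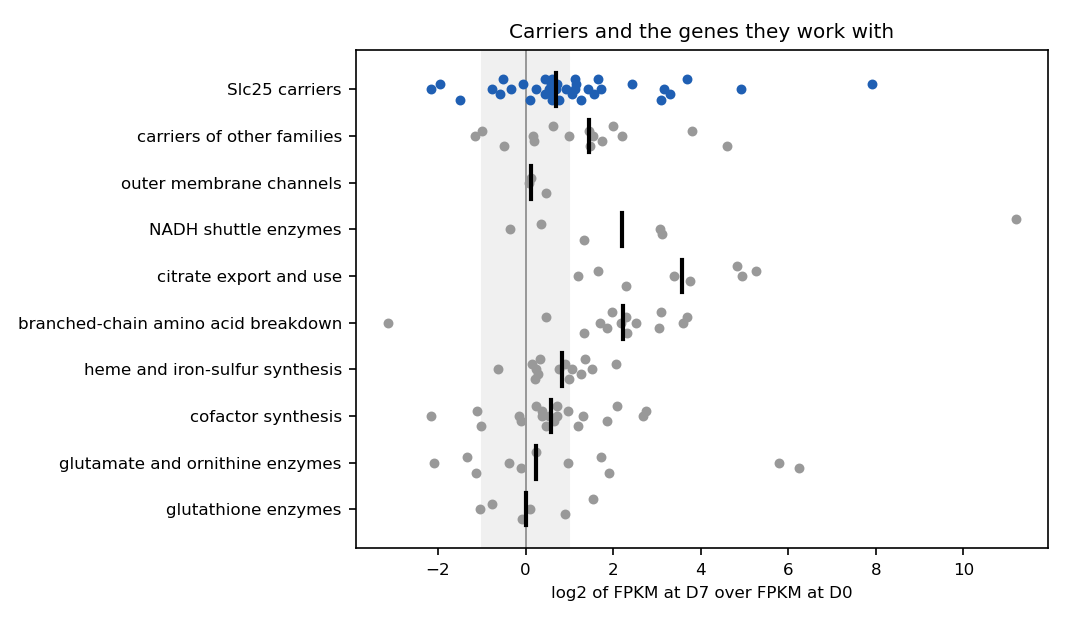
Log2 ratio of FPKM at D7 over D0 for each carrier (blue) and each gene of 9 partner lists (grey), with a black bar at the median of each row and grey shading within 2.0-fold. The bar of the carriers stands at 0.71 and that of citrate export and use at 3.58, the highest.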

How the data were processed

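RNA-Seq was performed on 1 library at D0 and 1 at D7. According to the methods, the authors filtered out adaptor, low-quality, duplicate and rRNA reads before aligning to mm10 and gene sequences with SOAP2, while the submitters' processing notes name Bowtie2. The authors deposited 1 FPKM value per gene and library, used here without rescaling. The library preparation degraded the second cDNA strand, per the methods, which keeps the strand of each fragment. The counter, the annotation and whether counting used strand are not given in the sources used here, so genes that overlap others are uncertain. Exons of genes on the other strand also overlap Slc25a21, Slc25a33, Slc25a37 and Slc25a46. Of 27324 rows, 3963 held no value.

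Genes above 0 at both stages were given a ratio, D7 over D0, with no pseudocount. Numbers of fragments were recovered with the help of 600 single-exon genes of at least 600 bp with ends within 500 bp of the GENCODE M21 annotation. With 179 bp at D0 and 182 bp at D7 taken from each length, all values of at most 20 fragments (79 and 89) came out whole to within 0.1. Multi-exon genes took the length of their named transcript (39 carriers) or else the longest coding transcript (4 carriers), so their fragments are approximate, and 4 of 9 carrier values of up to 20 fragments were whole. Starts in the deposited loci count from 0 and were moved to count from 1.

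The carriers, groups, pairs and lists were chosen with earlier results of these data known. Values are given for the carriers with an FPKM of at least 1 in a library, except 1 that is not reported here by name but is counted, and low carriers are accounted for by name, with partner genes named where they pass 2.0-fold or answer a statement on their list. Alternatives were TPM, scaling by a trimmed mean, by the upper quartile or by the median ratio, values under 0.01 set to 0.01 before each library was divided by its median, pseudocounts of 0.1 and 1, summing of rows, filters at an FPKM of 1 and at 10 fragments, and a threshold of 4-fold. Scripts were tested on simulated data. The software was scipy 1.17.1, pandas 2.3.3, matplotlib 3.10.9 and numpy 2.4.6 under Python 3.11.15.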

Additional observations from a re-analysis of the deposited data

How the results depend on the processing

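With 1 library per stage, leaving out a library was not possible, and the spread between cultures is unknown. No paired analysis was possible because each stage has 1 library. The counts of 16 higher and 3 lower carriers ranged from 13 to 17 and from 2 to 4 over the alternative scalings, pseudocounts and filters. A threshold of 4-fold left 7 higher and 1 lower. The median log2 ratio of 0.71 was 0.36 when values under 0.01 were set to 0.01 and each library divided by its median, which moved the median of all genes by -0.35, and 0.51 with a pseudocount of 1, both over all 43 carriers. Under that division 5 of the 35 carriers lost their call, 1 gained one, as named above, and Slc25a38, which is within counting error, changed sign. With a pseudocount of 1, Slc25a33, Slc25a43 and Slc25a47 of these 35 no longer reached 2.0-fold. Slc25a27, of lower level, is not among the 35. TPM, the median ratio, the upper quartile and the trimmed mean changed no call of the 35 carriers with an FPKM of at least 1 in a library. Depth limits Slc25a21, Slc25a34 and the carriers listed at 0.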
